A study of Rattus norvegicus with 4 samples.

Results

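This account covers 35 enzyme genes that carry glucose to pyruvate and lactate, feed pyruvate into the mitochondrion and turn the citric acid cycle. They were taken from a list of names and matched to the gene symbols of the array platform, and the matching used no measured values. The list itself was chosen with earlier results of these data known. Of the 35, 32 had a probe set named for them alone, among 10411 named genes in all. These 32 were read by 45 probe sets, of which 39 were ordinary and 6 were control probe sets for Gapdh and Hk1 that Affymetrix places along the transcript. Gapdh had only control probe sets, so 31 genes could enter the comparisons, and 30 reached the limit for a measured gene. Hk2 stayed below it on all 4 arrays, between 19.7 and 36.9. Dlat, Fh and Pkm had no probe set that named them alone and were not analysed here.

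The series asks how nicotine before birth affects the kidney of male rats at 9 weeks of age. Whole kidney RNA came from the spontaneously hypertensive rat (SHR), an inbred strain with inherited high blood pressure, and from Brown Norway (BN), an inbred strain with normal blood pressure. In each strain 1 group had received nicotine prenatally and the control group saline prenatally. RNA of 13 animals (SHR nicotine) or 12 animals (SHR saline, BN nicotine and BN saline) was pooled in equal amounts, and each pool was read on 1 Affymetrix RAE-230A array. The dose and timing of nicotine were not given in the sources used here. With 1 pooled array per group the spread between animals was not measured, and fewer cells of a type cannot be told apart from less RNA per cell.

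Glycolysis splits glucose in the cytosol into pyruvate, with a small yield of ATP, and lactate dehydrogenase interconverts pyruvate and lactate. Pyruvate dehydrogenase makes acetyl-CoA from pyruvate in the mitochondrion, and the citric acid cycle oxidises that acetyl group and passes electrons to the respiratory chain. In the kidney the proximal tubule depends mainly on fatty acids, lactate, glutamine and other fuels burned in mitochondria and also makes glucose, whereas glycolysis is more active in distal segments and the medulla.

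Signals are intensities on an arbitrary linear scale, so a signal was compared only with the signal of the same probe set on another array. Values below 44.5 were raised to that floor, and a gene counted as measured from 89 upward. Kidney identity was borne out by markers of the proximal tubule, all 9 of the 9 with a probe set being measured. No marker of skeletal muscle, adrenal cortex or liver reached the limit. Of the adipocyte markers with a probe set 1 of 4 was measured, Lpl, which was lower in SHR (log2 -0.63). Of those of red blood cells 2 of 3 were measured. Depending on the array, 58.9% to 60.7% of probe sets lay at the floor or above it, and the floor replaced the signal of the rest. The 3' to 5' signal ratio of the beta-actin control, a sign of RNA integrity, was 1.34 and 1.39 in the SHR pools and 1.49 and 1.54 in the BN pools. That of Gapdh ran from 1.0 to 1.11 and did not separate the strains. The hexokinase control had ratios of 2.27 and 2.81 in SHR against 1.71 and 2.22 in BN, the reverse order to beta-actin, with a 5' signal below the limit of measurement on all 4 arrays.

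Averaged over treatments, 8 of the 30 enzymes differed between SHR and BN at an adjusted p under 0.05 with limma. Higher in SHR were Eno1 and Pklr of glycolysis and Idh3a, Ogdh, Suclg1 and Mdh2 of the citric acid cycle. Lower in SHR were Ldhb and Aco1. The differences were small, from 1.14-fold for Ogdh to 1.32-fold for Suclg1 and Aco1. Over all genes tested, 17.6% differed between strains (8.28% higher and 9.33% lower in SHR), against 26.7% of these enzymes. The share called was larger among bright genes, at 30.3% of all genes with a mean signal of 500 or more, and 25.0% of the 24 enzymes that bright were called. The share of enzymes was thus no higher than that of all genes of such brightness. The calls also rest on the intensity trend of the fit, which lends bright genes a smaller error. Without it 0 enzymes were called, against 8.08% of all genes, and the adjusted p of Aco1, Suclg1 and Eno1 were 0.0642, 0.0611 and 0.095 with limma. With no filter on low genes 0 enzymes and 0 genes were called. The count was 6 after quantile normalisation, against 9.19% of all genes, and 6 with strain as the only factor, against 14.1%. Raising the floor to the 60th percentile gave 10 of the 28 enzymes then tested, against 28.8% of all genes. In the main fit the median log2 difference of the 30 enzymes was 0.03, against 0.00 over all genes.

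**Figure D1:**
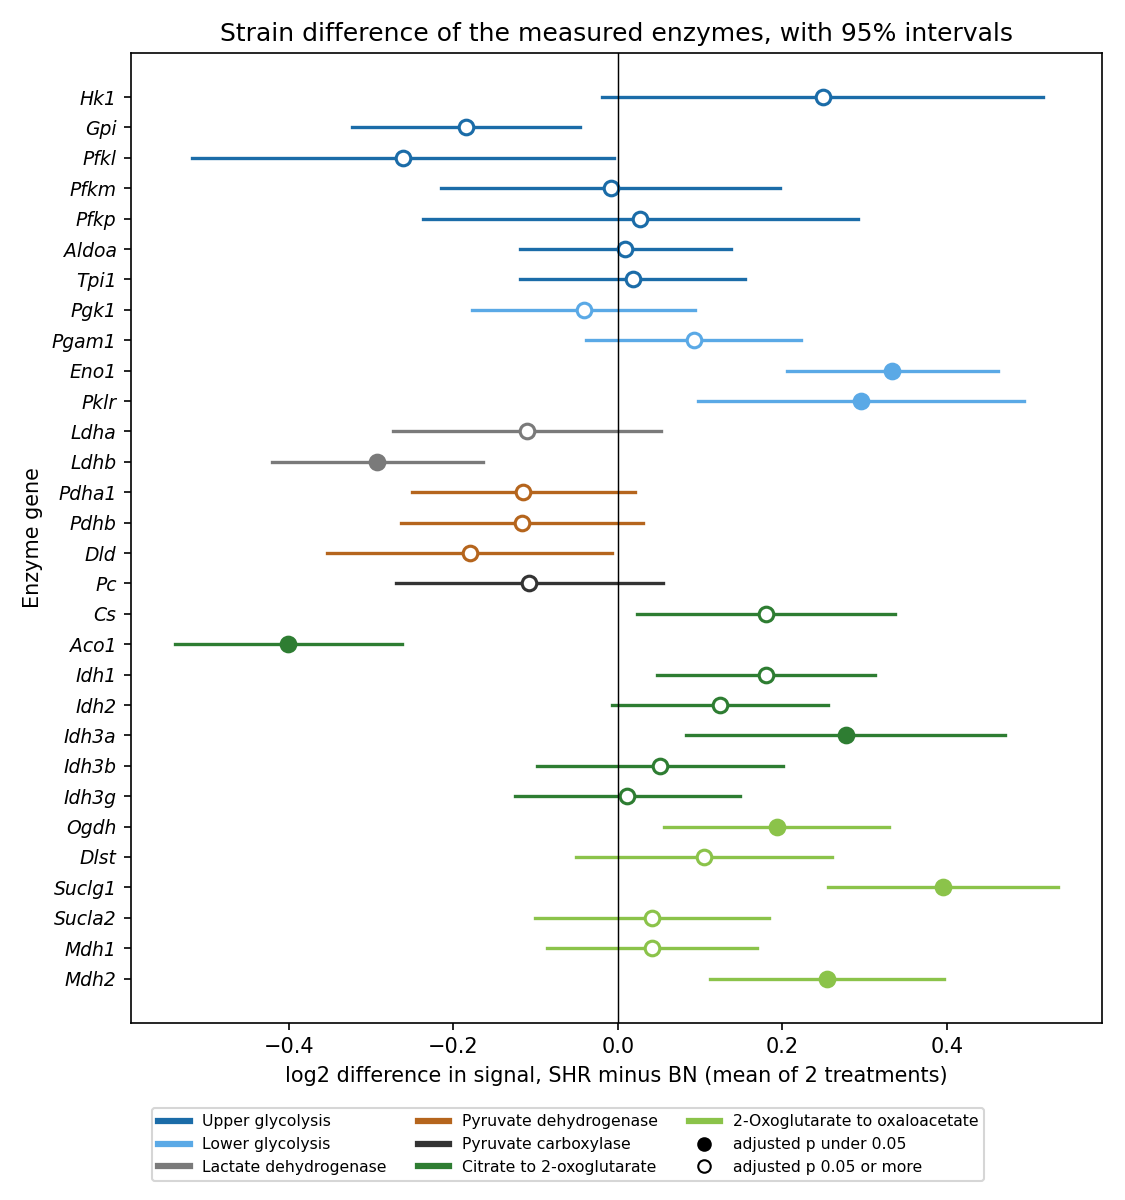
Strain difference of the 30 measured enzymes, as SHR minus BN on the log2 scale (horizontal axis), listed from upper glycolysis to the end of the citric acid cycle; lines are 95% intervals from limma and filled points have an adjusted p under 0.05. Filled points lie between -0.40 for Aco1 and 0.40 for Suclg1, and Aco1 is the 1 enzyme of the citric acid cycle list left of 0.

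The steps from glucose to triose phosphate were represented by 7 measured enzymes, none of which passed the threshold between strains. Gpi, which turns glucose 6-phosphate into fructose 6-phosphate, read 1265 and 1298 in the SHR nicotine and saline pools against 1437 and 1474 in the BN pools. Both SHR arrays lay below both BN arrays, a log2 difference of -0.18 (SE 0.07) that missed the threshold (adjusted p = 0.0613 with limma). Pfkl, the liver form of phosphofructokinase, the committing step, read 151.5 and 156.8 in SHR against 191.1 and 178.6 in BN. Its log2 difference of -0.26 had a wide interval, from -0.52 to -0.01, and an adjusted p of 0.156 with limma. The muscle and platelet forms Pfkm and Pfkp stood at -0.01 and 0.03, with overlapping arrays. Aldolase A (Aldoa) and triose phosphate isomerase (Tpi1) were at 0.01 and 0.02. Their intervals allow at most a 1.11-fold higher level in SHR.

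Hexokinase 1 (Hk1), which traps glucose in the cell as glucose 6-phosphate, had 1 array apart from the rest. It read 257.9 in SHR nicotine, 266.8 in SHR saline and 275.1 in BN nicotine, but 177.2 in BN saline. The strain ratio was therefore 1.51-fold under saline and 1.07-fold in the other direction under nicotine, and the average of 0.25 on the log2 scale did not pass (adjusted p = 0.199 with limma). Hk1 was the 1 enzyme at least 1.5-fold apart between strains under saline, where 7.39% of all measured genes were, and under nicotine there was 0 of 30 against 7.6%. The control probe sets for hexokinase did not show the low BN saline value. The one at the 3' end read 87.8 there against 72.3 to 73.8 on the other arrays, and the one in the middle read 79.4 to 89.7 over the 4 arrays, all near the limit of measurement.

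Of the 4 measured enzymes between triose phosphate and pyruvate, 2 were called higher in SHR, against 8.28% of all genes. In either direction 17.6% of all genes were called, and 30.3% of those with a mean signal of 500 or more. Enolase 1 (Eno1), which makes phosphoenolpyruvate, read 4215 and 4158 in the SHR nicotine and saline pools against 3265 and 3381 in the BN pools. The SHR arrays were close together and well above both BN arrays, by 1.26-fold on average (log2 0.33, adjusted p = 0.000504 with limma, SE 0.06). Eno1 kept its call in all 4 fits that left out 1 array, in which the lone pool of a strain is taken to vary like the others. Pklr, the pyruvate kinase of liver, red cells and proximal tubule, read 413.6 and 491.7 in SHR against 382.0 and 353.4 in BN. The difference was 1.23-fold (log2 0.30, SE 0.09, adjusted p = 0.0346 with limma), carried mostly by the saline pools, where the ratio was 1.39-fold against 1.08-fold under nicotine. A second, dimmer probe set of Pklr went the other way, at 104.7 and 96.6 in SHR against 114.1 and 109.8 in BN. The mean of both gave a log2 difference of 0.07 (adjusted p = 0.688 with limma), and the brighter one kept its call in 1 of 4 fits that left out an array, the one without SHR nicotine. In the other 3 fits its log2 difference was 0.17 to 0.35 and its adjusted p 0.192 to 0.337 with limma. Phosphoglycerate mutase 1 (Pgam1) at 0.09 and phosphoglycerate kinase 1 (Pgk1) at -0.04 were not called.

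Gapdh, the dehydrogenase of glyceraldehyde 3-phosphate that is often used as a reference gene, was read by its control probe sets only. The 3' probe set read 4184 and 3984 in SHR nicotine and saline against 4187 and 4307 in BN nicotine and saline. The middle and 5' probe sets ran from 3730 to 3840 and from 3781 to 4007 over the 4 arrays. The strain differences of the 3 were -0.06, 0.03 and -0.01 on the log2 scale. None passed when every probe set was entered as a feature of its own, with adjusted p values of 0.574, 0.766 and 0.902 with limma.

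Of the lactate dehydrogenase subunits, 1 of 2 passed, lower in SHR, while 9.33% of all genes passed as lower. Ldhb, the heart-type subunit, read 2950 and 2895 in the SHR nicotine and saline pools against 3635 and 3524 in the BN pools. That is 1.22-fold lower in SHR (adjusted p = 0.00175 with limma, log2 -0.29, SE 0.06), with no overlap. Leaving out BN nicotine ended the call (log2 -0.27, adjusted p = 0.0719 with limma) and leaving out any other array did not. Ldha, the muscle-type subunit that is favoured in glycolytic cells, read 685.8 and 642.2 in SHR against 792.7 and 647.2 in BN, so the arrays overlapped and the high value was that of BN nicotine.

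None of the 4 measured enzymes that act on pyruvate in the mitochondrion passed between strains. Pdha1 and Pdhb, the subunits of the decarboxylase, and Dld, the lipoamide dehydrogenase shared with the 2-oxoglutarate complex, had log2 differences of -0.11, -0.12 and -0.18. Their adjusted p values were 0.25, 0.286 and 0.147 with limma. For Pdha1 the dimmer of its probe sets read 791.6 and 833.4 in SHR against 911.4 and 1007 in BN, and it passed when every probe set was entered as a feature (log2 -0.24, adjusted p = 0.0263 with limma). The brighter one, at 1557 and 1681 against 1720 and 1784, had the same direction and did not. Pyruvate carboxylase (Pc), which makes oxaloacetate from pyruvate, read 576.9 and 573.9 in SHR against 607.5 and 632.6 in BN, and was not called either.

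Among the 13 measured enzymes of the citric acid cycle list, 5 were called, 4 higher and 1 lower in SHR. That is 38.5% of them, against 17.6% of all genes and 30.3% of genes with a mean signal of 500 or more. Of the 13, 12 had a positive difference, against 50.2% of all genes, and their median was 0.12. That count was the same after quantile normalisation and cyclic loess, and 11 with means over probe sets. It depends on which genes were listed. The list leaves out Dld (-0.18), which is shared with the 2-oxoglutarate complex, and Suclg2 (-0.13). It also leaves out Sdha (-0.40, called), Sdhb (-0.15), Sdhc (0.06) and Sdhd (0.05), and it counts the cytosolic Aco1, Idh1 and Mdh1. Cell type markers also differed between the strains. Of 9 tested markers of the proximal tubule, 5 were higher in SHR and 1 was lower, with a median of 0.29. Their summed signal was 20380 and 20830 in SHR against 18490 and 18980 in BN. Of 4 tested markers of the thick ascending limb, 1 was higher and 1 was lower, with a median of -0.11. These summed to 7883 and 8027 in SHR against 7298 and 7260 in BN. Of 2 tested markers of the distal convoluted tubule, 0 were higher and 1 was lower, with a median of -0.145. These summed to 1610 and 1960 against 1805 and 1844. Immune cell markers summed to 4077 and 3483 in SHR against 2862 and 2590 in BN, with 4 of 4 tested higher in SHR, and those of the collecting duct to 1780 and 1992 against 2144 and 2211. The defining immune markers Cd68 and Ptprc stayed below the limit on all arrays. Podocyte markers summed to 695.1 and 702.3 in SHR against 834.6 and 844.2 in BN. Those of the endothelium summed to 1122 and 1111 against 1009 and 1036. The part of these cells, and of the beta-actin and hexokinase 3' to 5' ratios that separated the strains in opposite directions, in the enzyme differences was not tested.

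Furthest above 0 among the 30 was Suclg1, the alpha subunit of succinyl-CoA synthetase, which makes GTP or ATP in the cycle. It read 1492 and 1499 in the SHR nicotine and saline pools against 1155 and 1119 in the BN pools. The 2 pools of a strain were almost alike and the strains were 1.32-fold apart (log2 0.40, SE 0.07, adjusted p = 0.000205 with limma), with the call kept in all 4 fits that left out 1 array. Sucla2, the subunit that pairs with it for ATP, read 1160 to 1220 over the 4 arrays and was not called (log2 0.04, 95% interval -0.10 to 0.18). Suclg2, its partner for GTP, had a log2 difference of -0.13 and was not called, so of the 3 subunits of the enzyme only Suclg1 passed.

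Aco1 stood against the others of its list. It encodes the cytosolic aconitase, which without its iron-sulphur cluster binds messenger RNA as iron regulatory protein. It read 1571 and 1712 in the SHR nicotine and saline pools against 2176 and 2153 in the BN pools, 1.32-fold lower in SHR (adjusted p = 0.000143 with limma, log2 -0.40, SE 0.07), and all 4 fits that left out 1 array kept the call. Mitochondrial malate dehydrogenase (Mdh2), which closes the cycle at oxaloacetate, read 1282 and 1247 in SHR against 1057 and 1063 in BN. It was 1.19-fold higher in SHR (adjusted p = 0.0121 with limma, log2 0.25, SE 0.07), and of the fits that left out 1 array only that without SHR saline kept the call, with adjusted p of 0.0645, 0.117 and 0.13 with limma in the other 3. The cytosolic form Mdh1 differed by 0.04 on its brighter probe set and by -0.08 on the other, neither of them called.

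**Figure D2:**
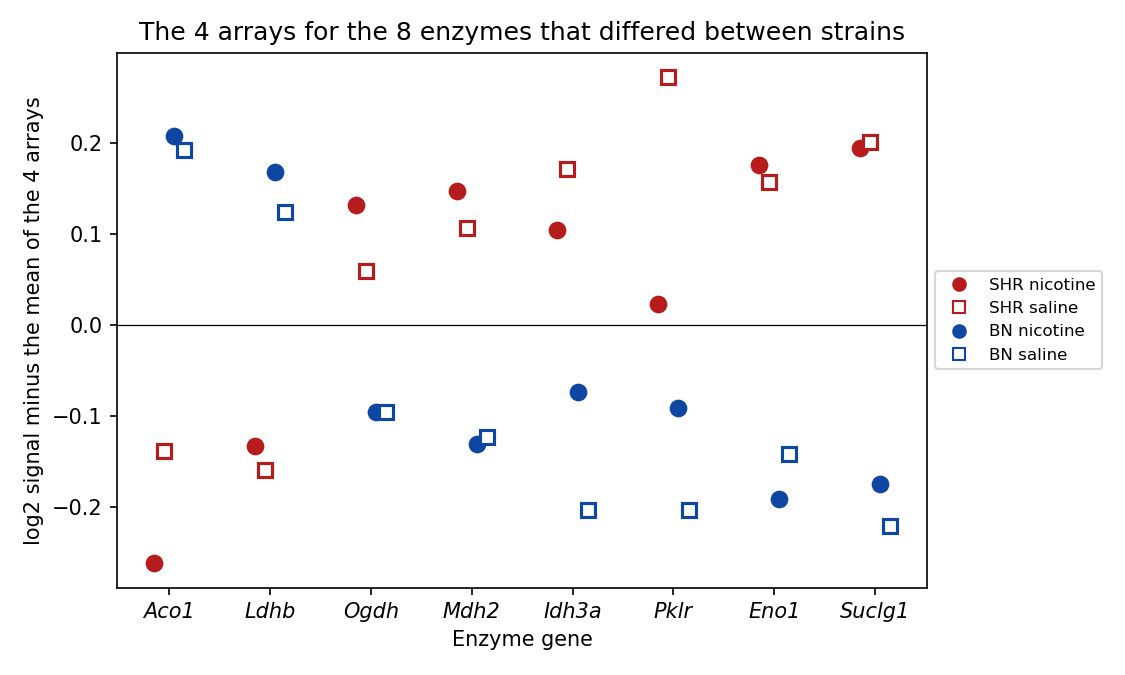
Signals of the 8 enzymes called between strains on the 4 arrays, as log2 signal minus the mean of the 4 arrays (vertical axis), with SHR in red, BN in blue, nicotine as filled circles and saline as open squares. In each enzyme both SHR arrays lie on 1 side of both BN arrays, and the SHR pools of Pklr are further apart than those of Suclg1 or Eno1.

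The remaining calls lay near the threshold. Idh3a, the catalytic subunit of the NAD-dependent isocitrate dehydrogenase, read 372.5 and 390.2 in SHR against 329.2 and 300.9 in BN, 1.21-fold higher in SHR (adjusted p = 0.0441 with limma, log2 0.28, SE 0.09). Its partners Idh3b and Idh3g differed by 0.05 and 0.01, with overlapping arrays. Ogdh, the first component of the 2-oxoglutarate dehydrogenase complex, read 1754 and 1668 in SHR against 1497 on both BN arrays (log2 0.19, SE 0.07, adjusted p = 0.0469 with limma). Dlst, the second component, was not called at 0.10. Neither was called in any fit that left out 1 array, where the adjusted p with limma was 0.114 to 0.305 for Idh3a and 0.0535 to 0.217 for Ogdh.

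Next in order of p among the cycle enzymes, and not called, were Idh1 and citrate synthase (Cs), which condenses acetyl-CoA with oxaloacetate. Idh1, the cytosolic NADP-dependent isocitrate dehydrogenase, read 2167 and 2228 in SHR against 1898 and 1983 in BN (log2 0.18, SE 0.06, adjusted p = 0.0564 with limma). Its mitochondrial counterpart Idh2 stood at 0.12. The brightest of the 3 probe sets of Cs read 873.4 and 786.8 against 728.9 and 734.0 (log2 0.18, SE 0.08, adjusted p = 0.107 with limma). The other probe sets of Cs gave 0.28 and 0.04. The first of these, at 389.1 and 388.3 against 319.0 and 321.9, passed when every probe set was entered as a feature (adjusted p = 0.0401 with limma).

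Counted by order alone, both SHR arrays lay above or both below both BN arrays for 21 of 30 enzymes, 13 higher and 8 lower, which is 70.0% against 58.2% of all measured genes. For the 22 enzymes that were not called, the 95% intervals reached no further than 1.43-fold in either direction. A missed threshold in these enzymes does not show that the strains were alike.

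How far a result rests on the probe set chosen can be read from 6 enzymes with several measured probe sets. In Cs, Pdha1 and Pfkm these had the same direction, and in Mdh1, Pgk1 and Pklr they were opposite. The spread between probe sets of 1 gene ran from 0.12 in Mdh1 to 0.45 in Pklr on the log2 scale, as large as the strain differences themselves. The other 24 measured enzymes had 1 measured ordinary probe set, among them all called ones but Pklr.

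**Figure D3:**
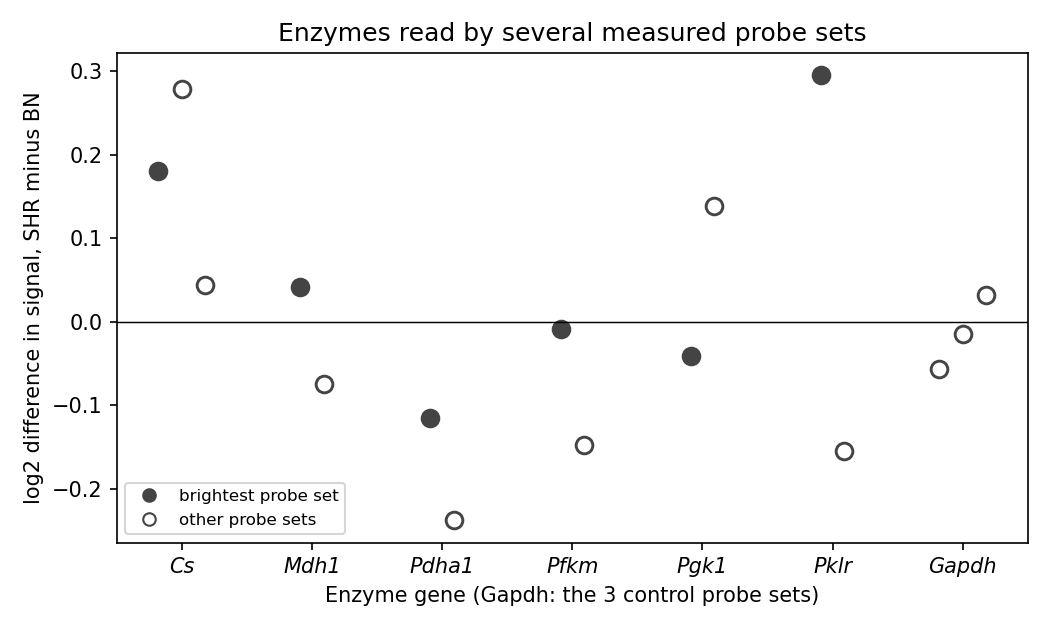
Strain difference by probe set (SHR minus BN, log2 scale, vertical axis) for the 6 enzymes with several measured probe sets and for the 3 control probe sets of Gapdh; the filled point is the brightest probe set of a gene. The points of Pklr lie on opposite sides of 0, at 0.30 and -0.15, and those of Gapdh lie between -0.06 and 0.03.

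Glycolytic enzymes are known targets of the hypoxia-inducible factors, which bind a short core in DNA, so the start windows of the members and the factors themselves were looked at. Epas1, which encodes HIF-2 alpha, read 458.4 and 359.9 in SHR nicotine and saline against 588.9 and 617 in BN, 1.48-fold lower in SHR (adjusted p = 0.000139 with limma, log2 -0.57, SE 0.09). Hif1a read 438.8 to 464.4 over the 4 arrays and was not called. Epas1 and Hif1a each had 2 probe sets, and only the brighter one is given. RefSeq windows on the GRCr8 assembly, a genome of the BN strain, cover 250 bases before to 50 bases after a start site. The core was searched as ACGTG or GCGTG on either strand, which reads as CACGT or CACGC on the reverse, and a CACGTG holds overlapping matches. It was present in 41.6% of all 33469 windows, in 21 of the 36 windows of 32 members (58.3%), and in 6 of the 8 windows of the 7 called enzymes matched. Idh3a, Pgk1 and Pc were not matched. Shown are the windows of the 4 enzymes with the smallest adjusted p, with the core in capitals; for Eno1, which has several start sites, it is the one with more cores.
Suclg1, chr4:106866079-106866378, plus strand: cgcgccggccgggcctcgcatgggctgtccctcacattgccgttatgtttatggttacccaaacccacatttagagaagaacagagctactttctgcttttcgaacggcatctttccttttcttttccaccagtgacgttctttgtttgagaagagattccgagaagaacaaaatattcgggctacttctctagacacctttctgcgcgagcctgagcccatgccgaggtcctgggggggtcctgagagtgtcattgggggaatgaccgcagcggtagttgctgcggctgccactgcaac
Eno1, chr5:166003111-166003410, plus strand: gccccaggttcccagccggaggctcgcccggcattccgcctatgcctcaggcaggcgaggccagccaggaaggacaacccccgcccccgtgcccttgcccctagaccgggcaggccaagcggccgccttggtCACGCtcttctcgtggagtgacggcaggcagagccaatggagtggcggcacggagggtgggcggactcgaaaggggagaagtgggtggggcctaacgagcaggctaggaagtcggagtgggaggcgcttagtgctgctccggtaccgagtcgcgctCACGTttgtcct
Aco1, chr5:60055645-60055944, plus strand: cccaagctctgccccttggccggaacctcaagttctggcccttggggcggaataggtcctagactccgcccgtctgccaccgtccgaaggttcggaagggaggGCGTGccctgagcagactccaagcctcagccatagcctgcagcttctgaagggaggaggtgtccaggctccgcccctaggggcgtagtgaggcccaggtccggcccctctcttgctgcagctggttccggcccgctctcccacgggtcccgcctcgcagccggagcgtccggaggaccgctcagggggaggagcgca
Ldhb, chr4:177177359-177177658, minus strand: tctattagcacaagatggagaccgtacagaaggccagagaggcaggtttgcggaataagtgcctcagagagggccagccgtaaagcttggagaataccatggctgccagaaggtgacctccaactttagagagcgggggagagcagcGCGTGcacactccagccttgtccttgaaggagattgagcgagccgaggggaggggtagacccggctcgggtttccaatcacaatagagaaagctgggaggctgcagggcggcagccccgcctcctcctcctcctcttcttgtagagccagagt
The window of Suclg1 holds no core, that of Eno1 holds 2, and those of Aco1 and Ldhb hold 1 each. Enzymes with a core were thus found among those higher and those lower in SHR. A match describes the letters of the BN reference only, and the SHR sequence was not analysed here.

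Prenatal nicotine moved none of the 30 enzymes past the threshold when averaged over strains, as for all genes (0% of 5363 called with limma). At an unadjusted p under 0.05 there were 3 of the 30 enzymes, and 5.31% of all genes. The median log2 difference of the enzymes was 0.00, with 16 above 0 and 14 below. The lowest adjusted p was 0.656, for Dld (log2 -0.24, SE 0.09, 95% interval -0.43 to -0.06, with limma). Dld read 634.5 in SHR nicotine and 850.6 in SHR saline, and 813.6 against 851.7 in BN. The SHR nicotine pool was the low one of the 4, and the average was -0.07 without it and -0.42 without BN nicotine.

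Ldha came second, with 685.8 under nicotine and 642.2 under saline in SHR, and 792.7 and 647.2 in the BN pools. It was higher under nicotine in both strains, 1.07-fold and 1.22-fold, with a log2 average of 0.19 (SE 0.08) that did not pass (adjusted p = 0.766 with limma). The average was 0.09 without BN nicotine and 0.30 without SHR nicotine. Hk1 had the third smallest p, with an average of 0.29 (SE 0.14, adjusted p = 0.925 with limma) with the rise seen in the BN pools and not in the SHR pools. For the 8 enzymes called between strains, the nicotine averages lay between -0.07 for Pklr and 0.04 for Ogdh and Ldhb, with Aco1 at -0.05.

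Within SHR, where 1 pool per group gives no test, 0 of 30 enzymes were 1.5-fold apart between nicotine and saline, against 1.86% of all measured genes. The ratios furthest below 0 on the log2 scale were those of Dld at -0.42, Pfkp at -0.32 and Pklr at -0.25. Pfkp read 144.3 under nicotine and 180.2 under saline. The ratios furthest above 0 were 0.15 for Cs, 0.14 for Pfkm and 0.13 for Dlst. The other 27 enzymes apart from the 3 lowest lay within 0.2 of 0.

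In BN, 1 of 30 enzymes passed 1.5-fold, against 1.43% of all measured genes: Hk1, 1.55-fold higher under nicotine. Ldha followed at 0.29 and Idh3a at 0.13, and the lowest were Pfkp at -0.15, Tpi1 at -0.09 and Idh3b at -0.09. The other 28 enzymes apart from Hk1 and Ldha lay within 0.2 of 0. The spread of the ratios over the enzymes (SD) was 0.13 in SHR and 0.14 in BN, against 0.21 and 0.19 over all measured genes. Nicotine ratios had the same sign in both strains for 16 of 30 enzymes, Pfkp and Dld among them. Whether the response differed between strains could not be tested, since the additive fit uses that difference as its error.

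**Figure D4:**
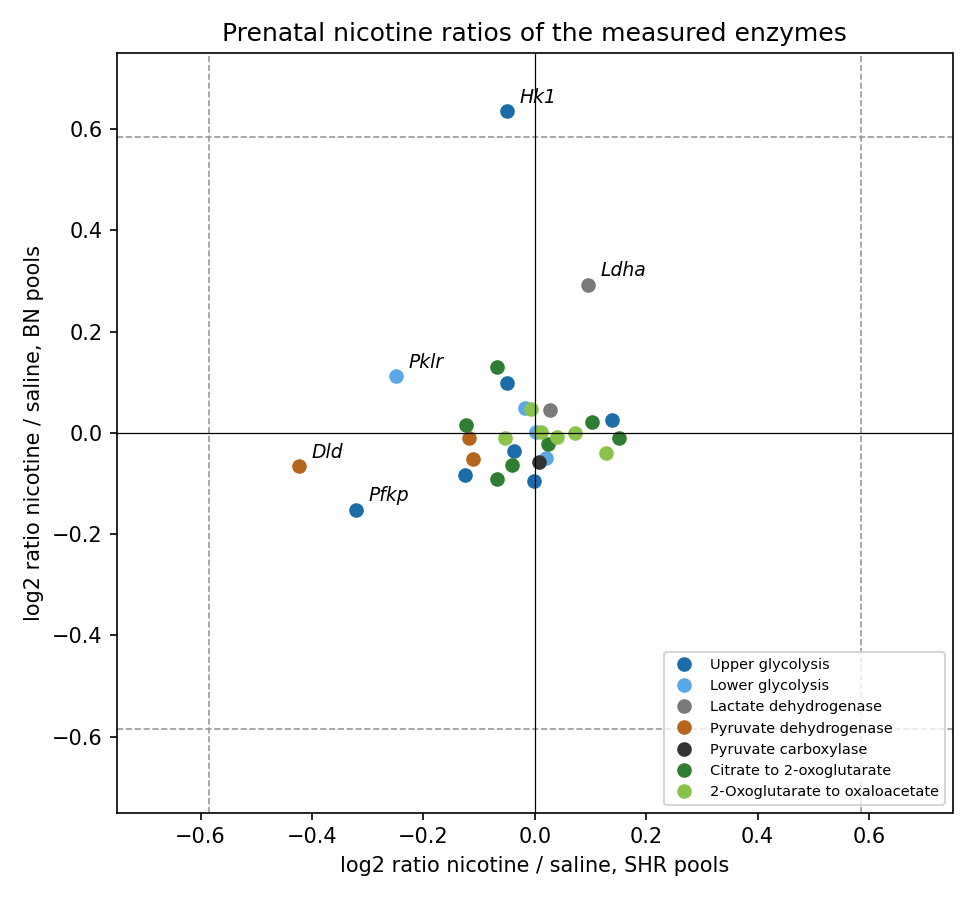
Nicotine over saline ratios of the 30 measured enzymes on the log2 scale, in the SHR pools (horizontal axis) and the BN pools (vertical axis), coloured by step; dashed lines mark 1.5-fold. Hk1 alone passes a line, at 0.63 in BN and -0.05 in SHR, and most points lie within 0.2 of 0 on both axes.

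Other genes of the same pathways came from lists written down beside the members. Of 10 tested enzymes and subunits of the same steps, 0 were higher and 1 was lower in SHR (10%, against 17.6% of all genes). This was Sdha, the flavoprotein subunit of succinate dehydrogenase that links the cycle to the respiratory chain, at 1863 and 2023 in SHR nicotine and saline against 2431 and 2706 in BN (log2 -0.40, SE 0.06, adjusted p = 8.61e-05 with limma). It follows Suclg1 in the cycle and had the opposite direction. The other subunits Sdhb, Sdhc and Sdhd were at -0.15, 0.06 and 0.05 and were not called. Of 10 tested regulators of glycolysis and pyruvate dehydrogenase, Epas1 was the 1 called (10%, against the same 17.6%). The pyruvate dehydrogenase kinase Pdk4 read 128.8 and 169.3 in SHR nicotine and saline against 166.3 and 131.6 in BN, and Pdk2 differed by -0.01 between strains.

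Of 15 tested carriers of glucose, pyruvate, lactate and citric acid cycle acids, 4 were higher and 1 was lower in SHR. That is 33.3%, against 17.6% of all genes and 30.3% of genes with a mean signal of 500 or more. Slc16a1, the carrier of lactate and pyruvate across the cell membrane, read 1215 and 1320 in SHR nicotine and saline against 592.8 and 377.2 in BN. It was 2.68-fold higher in SHR (adjusted p = 8.05e-09 with limma). Slc25a12, the aspartate and glutamate carrier of the malate shuttle, and Slc5a2, the glucose carrier of the proximal tubule, were 1.4-fold and 1.3-fold higher. Slc13a2, a carrier of citrate and of dicarboxylates, was 1.2-fold lower. The mitochondrial pyruvate carrier subunit Mpc1, named after its values were seen, was 1.14-fold higher (adjusted p = 0.0425 with limma), and Mpc2 was not called at 0.01.

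Of 14 tested genes of gluconeogenesis, anaplerosis and shuttles, 1 was higher and 3 were lower in SHR. That is 28.6%, against 17.6% of all genes and 30.3% of genes with a mean signal of 500 or more. Acly, which splits citrate in the cytosol, was 1.25-fold higher. Abat, the transaminase of GABA, Gpd1 of the glycerol phosphate shuttle and Glud1, which makes 2-oxoglutarate from glutamate, were 1.43-fold, 1.26-fold and 1.15-fold lower. Abat, Gpd1 and Glud1 each had 2 probe sets, and only the brighter one is given. Pck1, the key enzyme of glucose synthesis, read 4682 and 4475 in SHR nicotine and saline against 4572 and 4691 in BN, with a log2 difference of -0.02 and an interval from -0.15 to 0.11. Of 6 tested genes of the pentose phosphate pathway 1 was called (16.7%), H6pd of the endoplasmic reticulum, 1.31-fold lower in SHR. None of the genes of these 5 lists passed for nicotine.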

How the data were processed

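The authors deposited linear signal intensity per probe set. Per the submitters' processing notes they used MAS5, of which neither version nor settings were given. All 4 arrays had a 2% trimmed mean of 150, and no further scaling was applied. Control probe sets stayed out of the fits, except that those for Gapdh and Hk1 entered the one with every probe set as a feature. Gene names came from the platform annotation, and the brightest probe set stood for a gene. Signals below 44.5 (the 40th percentile) were raised to that floor, and a gene entered a test from 2 times the floor in the higher group mean. Strain and nicotine averages were tested on log2 values with limma 3.58.1 in R 4.3.3, as strain plus treatment, with an error that follows mean intensity and p-values adjusted over all genes by Benjamini-Hochberg. The fit has 1 residual degree of freedom and borrows 19.33 (strain) or 13.35 (nicotine) prior ones. Its residual is the difference between the strain ratios under nicotine and saline, and the error is shared among genes of like intensity. No condition had a replicate pool. The p-values therefore measure neither the spread between pools of a condition nor that between animals, and so few arrays limit the precision. Comparisons of 2 pools have no test.

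The members and lists were chosen with earlier results of these data known. Named with full values are members past 0.05 and the 3 next smallest p-values per average, the 3 largest nicotine ratios each way per strain, up to 4 called genes of each other list, and Slc16a1, Pck1 and the Sdh genes. Other values are given to account for all members, and the extra start windows, Pdk2, Pdk4, Suclg2, Hif1a and Mpc2 were chosen after values were seen. Floors, an offset, the filter, the normalisation, the probe set rule, the trend, the model and single arrays were varied. On simulated arrays of 5360 genes for the strain comparison, 65 of 67 genes changed 1.5-fold were recovered; smaller changes, as in the called enzymes, were not simulated. False calls numbered 11 over the whole run, which also held genes changed 2-fold and 3-fold. Changes were added only to genes clear of the limit of measurement. The simulated noise followed a smooth curve of spread on mean intensity, as the fit with the intensity trend assumes. The simulation could therefore not test that trend, on which the calls rest.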

Additional observations from a re-analysis of the deposited data

Results flagged for a closer look

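The nicotine ratio of Hk1 went in opposite directions in the 2 strains, at -0.049 on the log2 scale in SHR and 0.6348 in BN, where it passed 1.5-fold. The BN saline pool, at 177.2, was the low one of 4 arrays. The difference was not tested, since each group is 1 pool.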

How the results depend on the processing

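The strain count of 8 enzymes was 5 with the floor at the 20th percentile, 5 after cyclic loess and 5 with means over probe sets, while the count over all genes went from 959 to 829, 635 and 661. It was 0 with no filter on low genes, where 0 of all genes were called too, and 0 without the intensity trend, where 440 genes were called. Without the trend the median SE of the enzymes was 0.0966 in place of 0.0677, and Suclg1 had the smallest adjusted p of the called enzymes, 0.0611. Quantile normalisation and strain as the only factor gave 6, against 500 and 770 of all genes. The floor at the 60th percentile and every probe set as a feature gave 10, against 882 genes and 1055 probe sets in all. When 1 array was left out with strain as the only factor, each of the 8 kept its direction. The log2 difference ran from -0.46 to -0.34 for Aco1, from 0.37 to 0.42 for Suclg1 and from 0.17 to 0.42 for Pklr. Aco1, Suclg1, Eno1, Ldhb and Mdh2 were called in 8 of 10 settings, Ogdh in 4, Pklr in 3 and Idh3a in 2. For nicotine the count stayed 0 in every setting tried. At 1.5-fold, the 1 enzyme apart between strains under saline became 0 with an offset of 16 and 0 after cyclic loess. With the floor at the 20th percentile Hk2 counted as measured, giving 1 enzyme under nicotine and 2 in BN. The nicotine average of Hk1 ran from -0.0024 (without BN saline) to 0.59 when 1 array was left out. No paired analysis was possible because each group is 1 pool and the labels number no replicates; the strain plus treatment fit itself compares strains within treatment.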
